A study of Mus musculus with 14 samples.

Results

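Mouse cumulus cells, the somatic cells that surround the oocyte, supplied the nuclei for somatic cell nuclear transfer (SCNT), and 9 genes of their steroid synthesis were followed from the donor cells into the embryos. The genes were taken by symbol from the deposited table: Scarb1, Star, Cyp11a1, Fdx1, Hsd3b1, Cyp19a1, Akr1c18, Akr1b7 and Lhcgr. All 9 were found, among 22490 symbols, and all 9 were among the 13451 genes that reached at least 1 FPKM in at least 2 libraries and were tested. FPKM is the number of sequenced fragments of a gene scaled to the length of its transcript and to the mapped fragments of the library, so levels can be compared between genes. Lhcgr passed that filter only through the donor libraries, where it was high, so its difference from the embryos was fixed by the filter.

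After ovulation the cells of the follicle turn cholesterol into progesterone. Scarb1 takes up cholesterol from high-density lipoprotein, and Star moves it to the inner mitochondrial membrane. There Cyp11a1 cuts its side chain to give pregnenolone, with electrons passed on by Fdx1, and Hsd3b1 turns pregnenolone into progesterone. Akr1c18 inactivates progesterone in the mouse, Akr1b7 removes an aldehyde released by side-chain cleavage in the mouse adrenal, and Lhcgr is the receptor through which luteinizing hormone and hCG act. Cyp19a1, aromatase, makes estrogens and is known chiefly from granulosa cells of follicles before the ovulatory surge.

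The study compared RNA from 14 libraries in 7 groups of 2. Donor cumulus cells, about 1000 per library, came from the oviducts of adult females superovulated with PMSG and hCG, 15 hours after hCG, and were freed with hyaluronidase. The strain label of these cells is (C57BL/6J x CAST/EiJ) F1, whereas the protocol names BDF1 females, and the sources used here do not settle which holds. Embryos from in vitro fertilization (IVF) had a C57BL/6J oocyte and CAST/EiJ sperm and were pooled as 32 and 31 embryos at the 1-cell stage and 25 and 25 at the 2-cell stage. SCNT embryos had donor nuclei of the labelled F1 strain in B6D2F1 oocytes and were pooled as 36 and 36 at the 1-cell stage and 40 and 40 at the 2-cell stage. SCNT embryos of the 2-cell stage also came with overexpression of Kdm4d, which removes methyl groups from lysine 9 of histone H3, or of a mutant Kdm4d, in pools of 25 per library. Neither the nature of the mutation nor how the enzyme was overexpressed is given in the labels. SCNT and IVF embryos thus differ in the strain of the oocyte as well as in origin, and these cannot be told apart. Nothing in the labels says that replicates were separate experiments, so p-values measure only the spread between these libraries, which may be technical.

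Sums of FPKM ran from 183001 to 345452 per library and were lowest in the SCNT 2-cell libraries. The depth, estimated from the spacing of low values, was about 20900000 to 49600000 fragments, with at most 29200000 in the donor, Kdm4d and mutant Kdm4d libraries and at least 38600000 in all others. The 15 markers of cumulus and granulosa cells summed to between 14900 and 19400 FPKM in the donor libraries, where none was at 0. Most of that sum was Spp1 (14400 mean FPKM) and Gja1 (2040). The 10 oocyte markers summed to at most 2.57 FPKM in the donor libraries, and the 4 markers of theca and interstitial cells, which also make steroids, to at most 1.72 FPKM in any library. Among the marker lists of other cells, 5 immune markers summed to between 9.11 and 29.0 FPKM and 5 red blood cell markers to between 1.35 and 34.2 FPKM in the donor libraries. There, 4 endothelial markers summed to between 9.04 and 9.53 FPKM and 4 markers of oviduct epithelium to between 3.74 and 10.7 FPKM.

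The regions before the start sites of the 3 members that separated SCNT from IVF embryos at the 1-cell stage are shown, because these genes moved together. Each is the 250 bases before a RefSeq transcription start on GRCm38.p6, in the direction of the gene, for Cyp11a1 (chr9:57997774-57998023, plus strand), Hsd3b1 (chr3:98859795-98860044, minus strand) and Akr1c18 (chr13:4150647-4150896, minus strand). A second RefSeq start of Cyp11a1 had no match and is not shown. Capitals mark matches to the motifs searched.
Cyp11a1: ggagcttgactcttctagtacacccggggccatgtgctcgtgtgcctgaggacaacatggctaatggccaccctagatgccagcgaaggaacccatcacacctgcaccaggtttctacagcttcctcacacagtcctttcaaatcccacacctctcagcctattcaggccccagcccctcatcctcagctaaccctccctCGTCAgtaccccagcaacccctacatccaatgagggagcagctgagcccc
Hsd3b1: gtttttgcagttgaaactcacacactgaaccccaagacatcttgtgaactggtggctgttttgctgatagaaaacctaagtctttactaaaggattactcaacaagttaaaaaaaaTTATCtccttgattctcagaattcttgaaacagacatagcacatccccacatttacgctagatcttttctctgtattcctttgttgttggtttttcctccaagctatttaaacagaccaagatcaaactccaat
Akr1c18: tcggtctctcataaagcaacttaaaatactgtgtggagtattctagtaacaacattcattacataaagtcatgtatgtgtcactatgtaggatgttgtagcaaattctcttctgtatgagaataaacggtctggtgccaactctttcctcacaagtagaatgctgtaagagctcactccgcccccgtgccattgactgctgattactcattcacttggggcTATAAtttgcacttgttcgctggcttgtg

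The RefSeq table held promoters for 7 of the 9 genes. Searched on both strands were AAGGTCA and its looser form AAGGNCA, the site of the steroidogenic factors Nr5a1 and Nr5a2, TGACG, the core of the cyclic AMP response element, GATAA for GATA factors and the TATA sequence TATAA. The printed Cyp11a1 window, unlike that of the second start, held TGACG on the minus strand from 50 to 46 bases before the start. Such a match occurred in 17.8% of 32851 promoter windows of the same length. The Hsd3b1 window held GATAA on the minus strand from 134 to 130 bases before the start, a motif found in 22.6% of windows. The Akr1c18 window held TATAA from 29 to 25 bases before the start, a motif found in 22.8% of windows. None of the 3 printed windows held AAGGTCA, which Akr1b7 held from 248 to 242 bases before its start and which 4.08% of windows held. No motif was shared by the 3 windows, and these matches describe letters only.

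The donor cells were rich in the enzymes that make and inactivate progesterone. Akr1c18 (chromosome 13, 4131873 to 4149877 on mm9) was the 4th most abundant of all symbols, Cyp11a1 (chromosome 9, 57862824 to 57874830) the 10th, Hsd3b1 (chromosome 3, 98656120 to 98663717) the 12th and Fdx1 (chromosome 9, 51751412 to 51771638) the 28th. Levels in the 2 donor libraries were 3660 and 3210 FPKM for Akr1c18, 2240 and 1330 for Cyp11a1, 1650 and 1090 for Hsd3b1, and 574 and 741 for Fdx1. Cyp11a1 and Hsd3b1 were higher in the first donor library and Fdx1 in the second. Cholesterol supply was less abundant, with Scarb1 (chromosome 5, 125757457 to 125821464) at 101 and 75.7 FPKM and Star (chromosome 8, 26918985 to 26926454) at 21.9 and 23.2 FPKM.

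The label "steroid synthesis genes of cumulus cells" did not hold for 3 members by level. Lhcgr (chromosome 17, 89140889 to 89191316) stood at 2.10 and 7.66 FPKM in the donor libraries, with the largest ratio between replicates of any member there. Akr1b7 (chromosome 6, 34362362 to 34373137) stood at 2.00 and 2.58 FPKM. Cyp19a1 (chromosome 9, 54013744 to 54041249) stood at only 0.388 and 0.275 FPKM and ranked 11825th. Akr1b7 shares 15.8% of the 50-base stretches of its transcript with other genes, most with Gm13857, so its values are uncertain throughout. For the other 8 members the share was at most 4.86%, that of Hsd3b1.

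**Figure D1:**
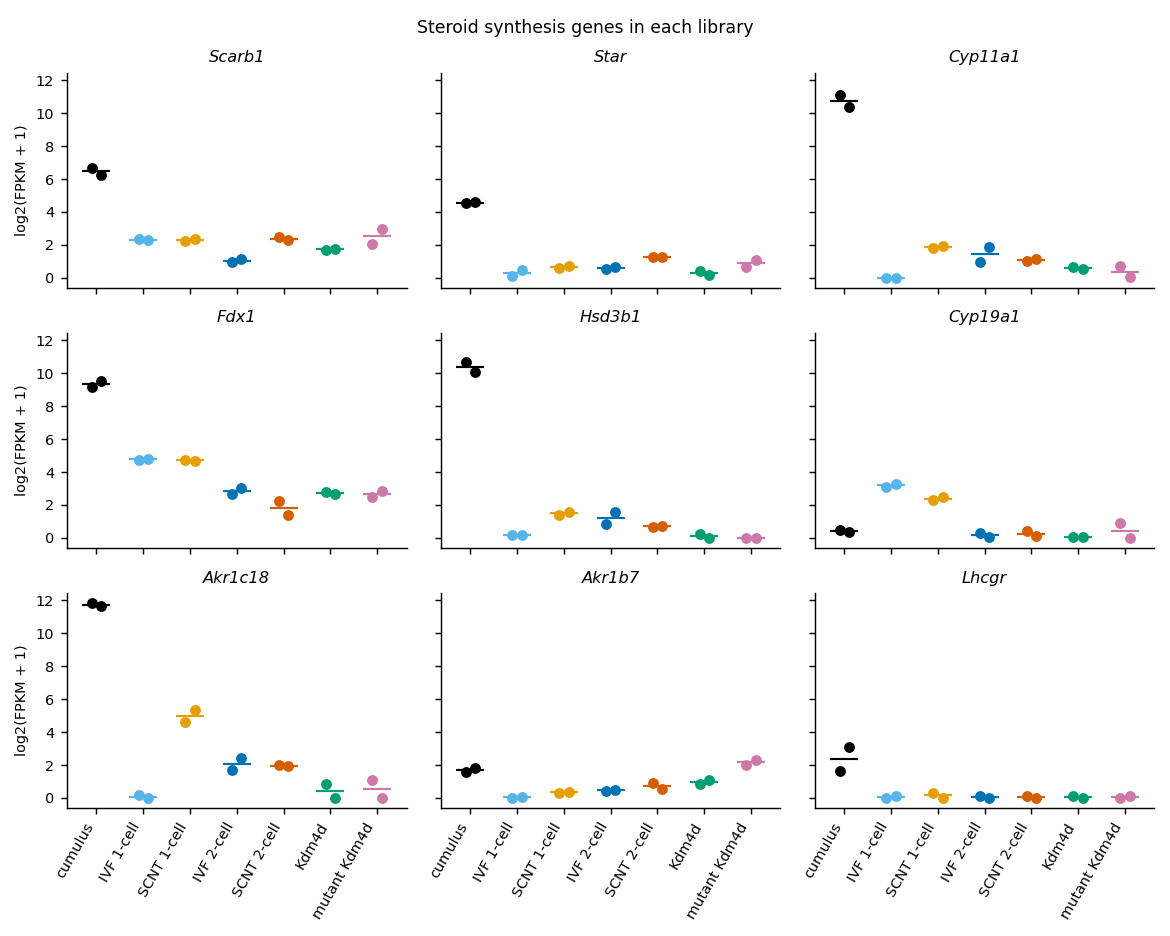
Level of each of the 9 genes, as log2(FPKM + 1), in the 2 libraries of each group (points) with their mean (line); Kdm4d and mutant Kdm4d are SCNT 2-cell embryos. Cyp11a1, Hsd3b1, Akr1c18 and Fdx1 stood far above every embryo in the cumulus cells, whereas Cyp19a1 was highest in 1-cell embryos.

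Donor cells were compared with IVF 1-cell embryos, which hold oocyte RNA and no donor nucleus. Of the 9 genes, 8 were higher in the donor cells and Cyp19a1 was lower, while 77.9% of all genes tested were called in this comparison (42.4% higher and 35.5% lower), so the count by itself says little about these genes. Cyp11a1 was listed at 0 in both IVF 1-cell libraries, and Akr1c18 at 0.114 and 0. Hsd3b1 stood there at 0.134 and 0.120 FPKM. On the log2(FPKM + 1) scale, which understates the changes of genes near 0, the difference was 11.67 ± 0.38 (SE) for Akr1c18, 10.76 ± 0.32 for Cyp11a1 and 10.22 ± 0.25 for Hsd3b1. The median over the 9 genes was 4.29, against 0.13 over all genes. In bulk samples such as these, fewer cells of a kind and less RNA per cell cannot be told apart.

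Fdx1 and Scarb1 were also present in the embryos. Fdx1 stood at 25.7 and 26.7 FPKM in IVF 1-cell libraries, a difference of 4.58 ± 0.24 from the donor cells (adjusted p = 4.2e-09, limma). Scarb1 stood at 4.12 and 3.88 FPKM, a difference of 4.15 ± 0.25 (adjusted p = 1.4e-08, limma). Neither pair of groups overlapped. Star, with 0.0581 and 0.370 FPKM in IVF 1-cell embryos, differed by 4.29 ± 0.19. Aromatase went the other way: Cyp19a1 stood at 7.45 and 8.76 FPKM in IVF 1-cell embryos, and the donor cells were lower by a log2 difference of -2.77 ± 0.25 (adjusted p = 4.4e-07, limma). Every IVF 1-cell library lay above both donor libraries.

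The wider pathway was followed in 6 lists chosen by role, which hold the 9 genes too. Among electron carriers, 5 of 6 genes tested were higher in donor cells and none lower, led by the ferredoxin reductase Fdxr (42.2 against 0.0868 mean FPKM, log2 difference 5.31). Of 14 genes tested for cholesterol supply and mitochondrial import, 8 were higher and 3 lower. The mitochondrial outer-membrane protein Tspo was higher (74.8 against 0.251 mean FPKM), whereas the Golgi protein Acbd3 was lower (11.2 against 116). Of 16 steroid synthesis enzymes listed 6 were tested, and 4 were higher, among them Hsd17b1, which activates estrogens (11.7 mean FPKM, listed at 0 in both IVF libraries). Cyp19a1 and Hsd3b7, an enzyme of bile acid synthesis (7.87 against 15.7), were lower. The other enzymes, among them Cyp17a1, which makes androgens, did not reach 1 FPKM in 2 libraries.

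Among 18 tested genes of steroid inactivation and conversion, 14 were higher and 3 lower in donor cells, beside 42.4% and 35.5% of all genes. Akr1cl, a relative of Akr1c18, was the 3rd most abundant symbol of the donor cells (6300 and 4240 FPKM against 6.33 and 7.35), and Akr1c14 followed (99.4 against 0.756 mean FPKM). Of 15 genes of gonadotropin receptors and cyclic AMP signalling, 9 were higher, led by the follicle-stimulating hormone receptor Fshr (8.18 against 0.197), and 2 lower, Prkar2a (1.45 against 9.42) and Rgs2 (223 against 402). Of 18 regulators, 14 were higher, led by Runx1 (52.5 against 0.160), and 3 lower, the estrogen receptors Esr2 (3.58 against 34.4) and Esr1 (0.483 against 5.50) and Foxo1 (9.28 against 47.1). Nr5a1, the regulator of steroidogenic genes, stood at 6.42 and 6.76 FPKM in donor cells and was listed at 0 in both IVF 1-cell libraries. List medians ran from 1.51 to 2.54, against 0.13 for all genes. As for Lhcgr, the filter fixed the direction of genes that passed it through the donor libraries alone: 6 of the 18 regulators, Nr5a1 among them, 3 of the 15 receptor and cyclic AMP genes, Fshr among them, 3 of the 18 genes of inactivation and 1 of the 14 of cholesterol supply. The counts and medians of these lists are therefore descriptions.

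**Figure D2:**
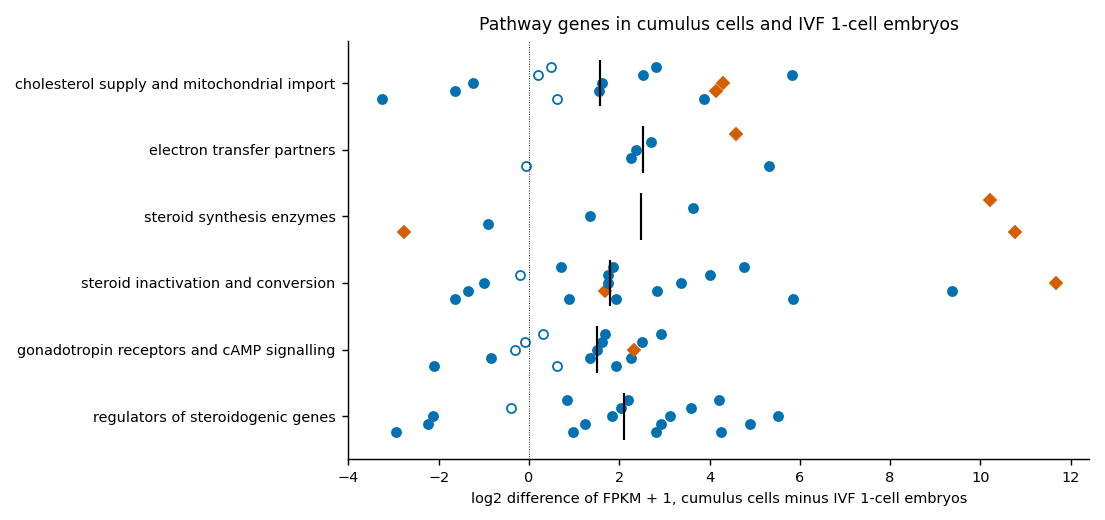
Difference between donor cumulus cells and IVF 1-cell embryos, on the log2(FPKM + 1) scale, for each tested gene of the 6 role lists. Diamonds are the 9 followed genes, circles the other genes, filled where the adjusted p was under 0.05, and the black line is the list median; Akr1c18, Cyp11a1 and Hsd3b1 lie at 11.67, 10.76 and 10.22.

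At the 1-cell stage 3 of the 9 genes were higher in SCNT than in IVF embryos and none was lower. Over all genes 2.31% were called, 1.34% higher and 0.974% lower. Akr1c18 stood at 23.9 and 38.8 FPKM in SCNT 1-cell embryos against 0.114 and 0 in IVF 1-cell embryos. The 2 groups lay far apart, and the difference was 4.90 ± 0.38 (SE) on the log2(FPKM + 1) scale (adjusted p = 0.0001, limma). These levels correspond to roughly 1400 and 2100 reads in the SCNT libraries and 6.8 and 0 in the IVF libraries.

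Cyp11a1 stood at 2.45 and 2.87 FPKM in SCNT 1-cell embryos and was listed at 0 in both IVF libraries, a difference of 1.87 ± 0.32 (adjusted p = 0.011, limma). Hsd3b1 stood at 1.62 and 2.01 FPKM against 0.134 and 0.120, a difference of 1.32 ± 0.25 (adjusted p = 0.022, limma). For both enzymes the SCNT libraries lay above the IVF libraries, but the calls needed all 4 libraries. Without either SCNT 1-cell or either IVF 1-cell library the adjusted p ran from 0.095 to 0.13 for Cyp11a1 and from 0.13 to 0.23 for Hsd3b1, while that of Akr1c18 stayed between 0.0014 and 0.0036.

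Electron transfer and cholesterol uptake showed no such difference. Fdx1 stood at 26.1 and 24.7 FPKM in SCNT and 25.7 and 26.7 in IVF 1-cell embryos, and Scarb1 at 3.64 and 4.19 against 4.12 and 3.88. Both pairs of groups overlapped. Cyp19a1 stood at 3.85 and 4.66 FPKM in SCNT embryos, below the 7.45 and 8.76 of IVF embryos, with a log2 difference of -0.79 ± 0.25 that missed the threshold (adjusted p = 0.13, limma). It passed with a spread for each group (0.00042) and with only these groups in the fit (0.026), and the range without single libraries was 0.36 to 0.57. The median over the 9 genes was 0.31, against 0.07 over all genes.

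Of all genes, 2.31% were called between these embryos, 1.34% higher and 0.974% lower in SCNT. The lists were chosen with earlier results of these data known, so their counts are descriptions. Apart from Akr1c18, Cyp11a1 and Hsd3b1, Akr1cl was higher in SCNT embryos (32.5 and 34.8 against 6.33 and 7.35 FPKM, adjusted p = 0.0014, limma), as was Prkaca, a catalytic subunit of protein kinase A (18.0 against 10.2 mean FPKM, adjusted p = 0.032). None of the 14 genes of cholesterol supply, 6 electron carriers or 18 regulators was called. Of the 15 cumulus and granulosa markers, 3 (Spp1, Gja1 and Tnfaip6) were called higher and 0 lower. Their median difference was 0.13, against 0.07 over all genes, but 7 of the 15 passed the filter only through the donor libraries. Such genes lie near 0 in embryos and hardly move on this scale, so the median cannot show whether the list stood out. Their sum ran from 39.9 to 45.7 FPKM in SCNT and from 12.2 to 12.4 in IVF 1-cell embryos. Foxl2, Inha and Inhba were at 0 in both IVF libraries, and none of the 15 was at 0 in both SCNT libraries. The part of cumulus cell RNA in the result was not tested.

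The abundant members did not stand in the proportions of the donor cells in SCNT 1-cell embryos. Relative to its mean donor level, Akr1c18 stood at 0.912% in SCNT 1-cell embryos, Cyp11a1 at 0.149% and Hsd3b1 at 0.132%. Spp1, the most abundant donor transcript, stood at 0.173% and Gja1 at 0.219%. Akr1cl stood at 0.639%, with 0.130% in IVF 1-cell embryos. Across the 19 genes of at least 1000 FPKM in donor cells the median was 0.437%, with the 10th and 90th percentiles at 0.146% and 4.21%. Within a library, the ratio of Akr1c18 to Cyp11a1 was 1.63 and 2.41 in donor cells but 9.75 and 13.5 in SCNT 1-cell embryos, with no overlap. By contrast, the ratio of Cyp11a1 to Hsd3b1 was 1.35 and 1.22 in donor cells and 1.51 and 1.43 in SCNT 1-cell embryos. With 2 libraries per group these ratios are descriptions.

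**Figure D3:**
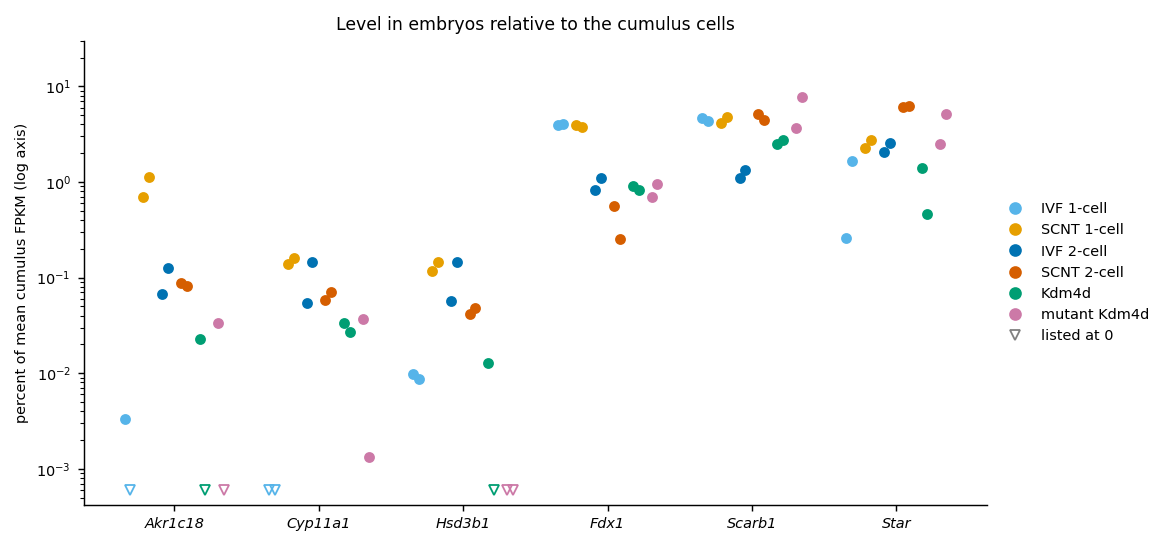
Level in each embryo library as a percentage of the mean donor cumulus level, on a log axis, for the 6 most abundant members; open triangles mark libraries listed at 0. Akr1c18 stood at 0.912% on average in SCNT 1-cell embryos, above Cyp11a1 at 0.149% and Hsd3b1 at 0.132%, whereas Fdx1 and Scarb1 stood between 3.87% and 4.53% in both kinds of 1-cell embryo.

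From the 1-cell to the 2-cell stage, Akr1c18, Cyp11a1 and Hsd3b1 fell in SCNT embryos and rose in IVF embryos, whereas Fdx1 and Cyp19a1 fell in both. In SCNT embryos 5 of the 9 genes fell and 1 rose, a share like the 67% of all genes called (35.5% higher and 31.5% lower). Akr1c18 fell from 23.9 and 38.8 FPKM to 3.03 and 2.79, a log2 difference of -3.01 ± 0.38 (adjusted p = 2.4e-05, limma). Fdx1 fell from 26.1 and 24.7 to 3.64 and 1.67 (-2.91 ± 0.24), and Cyp19a1 from 3.85 and 4.66 to 0.334 and 0.0779 (-2.13 ± 0.25). No 2-cell library reached a 1-cell library for any of these genes.

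The smaller SCNT changes rested on single libraries. Cyp11a1 fell from 2.45 and 2.87 to 1.05 and 1.25 FPKM (-0.77 ± 0.32, adjusted p = 0.049, limma), but without any single one of the 4 libraries the adjusted p was 0.097 to 0.18. Hsd3b1 fell from 1.62 and 2.01 to 0.576 and 0.654 FPKM (-0.80 ± 0.25, adjusted p = 0.015), and the call was lost without the second SCNT 1-cell or the first SCNT 2-cell library (adjusted p up to 0.091). Star rose from 0.517 and 0.620 to 1.37 and 1.42 FPKM (0.61 ± 0.19, adjusted p = 0.015), and lost the call without the first SCNT 1-cell or the second SCNT 2-cell library (up to 0.081). Scaling the libraries to equal FPKM sums ended the calls of Cyp11a1 (adjusted p = 0.45) and Hsd3b1 (0.17), and quantile normalization that of Star (0.46).

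In IVF embryos 4 genes rose and 3 fell, with 67.6% of all genes called (30.4% higher and 37.2% lower). Akr1c18 rose from 0.114 and 0 to 2.29 and 4.33 FPKM (1.99 ± 0.38, adjusted p = 0.00051, limma). Cyp11a1, listed at 0 in both 1-cell libraries, reached 0.977 and 2.63 FPKM (1.42 ± 0.32, adjusted p = 0.0017). Hsd3b1 rose from 0.134 and 0.120 to 0.788 and 1.98 FPKM (1.04 ± 0.25, adjusted p = 0.0032). Each 2-cell library lay above both 1-cell libraries, and the second 2-cell library was the higher for all 3 genes. These 3 calls held without any single library.

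The other IVF changes were losses and a small gain. Fdx1 fell from 25.7 and 26.7 to 5.45 and 7.26 FPKM (-1.90 ± 0.24), Scarb1 from 4.12 and 3.88 to 0.960 and 1.18 (-1.28 ± 0.25), and Cyp19a1 from 7.45 and 8.76 to 0.207 and 0.0534 (-3.01 ± 0.25). Akr1b7 rose from 0 and 0.0379 to 0.339 and 0.399 FPKM (0.43 ± 0.17, adjusted p = 0.044, limma), a call lost without any single one of the 4 libraries (adjusted p 0.10 to 0.16) and with values that stayed below 1 FPKM.

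The 3 genes that rose in IVF embryos stood at like shares of the donor level. Relative to the donor level, Akr1c18 stood at 0.0963% in IVF 2-cell embryos, Cyp11a1 at 0.101%, Hsd3b1 at 0.101% and Spp1 at 0.0965%. Within a library, Akr1c18 over Cyp11a1 was 2.34 and 1.65 and Cyp11a1 over Hsd3b1 was 1.24 and 1.33, all within the range of the donor libraries. Gja1 stood at 2.88% of the donor level, up from 0.0337% in IVF 1-cell embryos. The 19 genes of at least 1000 FPKM in donor cells, these 3 among them, had a median of 0.284%. Their 10th and 90th percentiles were 0.1% and 19.8%, so the shares of the 3 genes lay near the 10th percentile. Without the second IVF 2-cell library the shares were 0.0667% for Akr1c18, 0.0547% for Cyp11a1 and 0.0574% for Hsd3b1. The sum of the 15 cumulus and granulosa markers ran from 116 to 127 FPKM, of which Gja1 made 63.9 and 53.9, while Foxl2 was at 0 in both libraries and Inha stood at 0.131 and 0.221 FPKM. Whether cumulus cells were carried into these pools was not tested.

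The stage change itself differed between SCNT and IVF embryos for 5 of the 9 genes, against 29.2% of all genes (16.5% higher and 12.7% lower). It was lower in SCNT embryos by -5.00 ± 0.53 on the log2 scale for Akr1c18 (adjusted p = 9.7e-05, limma), by -2.19 ± 0.45 for Cyp11a1 (0.0041), by -1.83 ± 0.36 for Hsd3b1 (0.0032) and by -1.01 ± 0.34 for Fdx1 (0.046). It was higher by 1.36 ± 0.36 for Scarb1 (0.014), which fell in IVF embryos and stood at 4.52 and 3.94 FPKM in SCNT 2-cell against 3.64 and 4.19 in SCNT 1-cell embryos. For Akr1c18, Cyp11a1 and Hsd3b1 the calls held without any single library. That of Fdx1 held only without the first SCNT 2-cell library and was lost without any of the other 7, with adjusted p up to 0.17. That of Scarb1 was lost without the first SCNT 1-cell or the first IVF 2-cell library (up to 0.055).

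**Figure D4:**
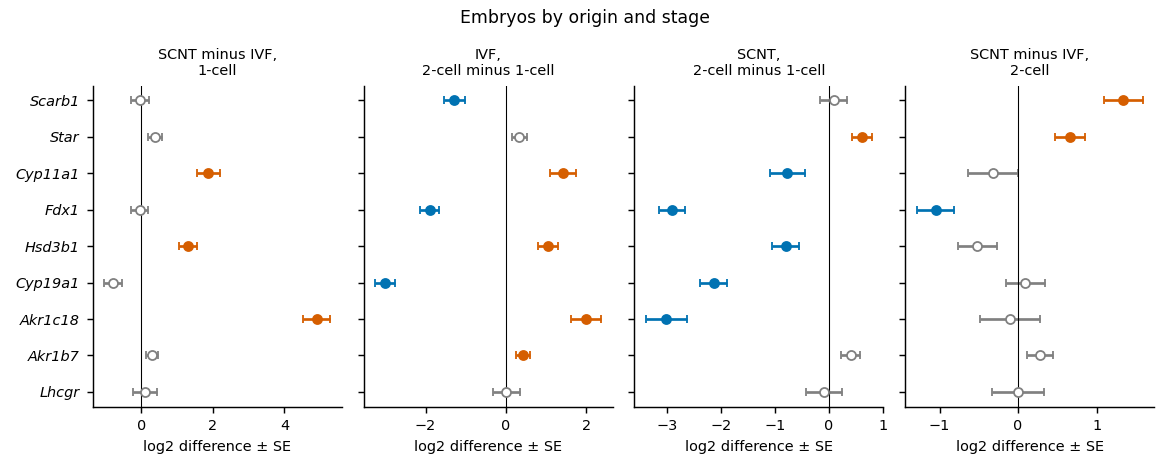
Differences on the log2(FPKM + 1) scale for the 9 genes in 4 comparisons of embryos, with 2 libraries per group. The SE comes from the limma fit of all 14 libraries, with 1 spread per gene shared by all groups. Filled points had an adjusted p under 0.05, orange higher and blue lower. Akr1c18 was higher by 4.90 in SCNT 1-cell embryos, then fell by 3.01 in SCNT and rose by 1.99 in IVF embryos.

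At the 2-cell stage Akr1c18, Cyp11a1 and Hsd3b1 were not called between SCNT and IVF embryos. Akr1c18 stood at 3.03 and 2.79 FPKM in SCNT and 2.29 and 4.33 in IVF 2-cell embryos (log2 difference -0.10 ± 0.38, adjusted p = 0.85, limma). Cyp11a1 stood at 1.05 and 1.25 against 0.977 and 2.63 FPKM (-0.32 ± 0.32, adjusted p = 0.44), and Hsd3b1 at 0.576 and 0.654 against 0.788 and 1.98 (-0.52 ± 0.25, adjusted p = 0.12). The groups overlapped for Akr1c18 and Cyp11a1, whereas for Hsd3b1 both SCNT libraries lay below both IVF libraries. These values do not show that the levels were equal. Quantile normalization made Cyp11a1 and Hsd3b1 lower in SCNT embryos (adjusted p = 0.033 and 0.0044).

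Of the 9 genes, 2 were higher and 1 was lower in SCNT 2-cell embryos, and 46.9% of all genes were called (30.3% higher and 16.6% lower). Scarb1 stood at 4.52 and 3.94 FPKM against 0.960 and 1.18 in IVF embryos (1.34 ± 0.25, adjusted p = 0.0011, limma). Star stood at 1.37 and 1.42 against 0.460 and 0.573 (0.66 ± 0.19, adjusted p = 0.015). Fdx1 was lower at 3.64 and 1.67 against 5.45 and 7.26 (-1.05 ± 0.24, adjusted p = 0.0041). None of these groups overlapped. The call of Star was lost without the first IVF 2-cell or either SCNT 2-cell library (adjusted p up to 0.087), with quantile normalization (0.40) and with a pseudocount of 0.1 (0.062).

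The counts of the pathway lists at this stage lay on both sides of the share called over all genes, 46.9%, whose median difference was 0.23. Of the 14 genes of cholesterol supply, 6 were higher and none lower (median 0.45), and of 15 receptor and cyclic AMP genes 8 were higher and none lower (median 0.52). Of 18 regulators 4 were higher and 2 lower (median 0.22), and of 18 genes of inactivation and conversion 7 were higher and 1 lower (median 0.23). The 6 steroid synthesis enzymes tested included 2 that were higher, Hsd17b1 (1.24 and 0.550 against 0.0848 and 0.0208 FPKM) and Hsd17b7 (7.23 against 2.5 mean FPKM). Of 6 electron carriers 3 were higher and 1 lower (median 0.68). Fdxr, the partner of Fdx1, was higher (2.24 and 2.24 against 0.682 and 0.823 FPKM) while Fdx1 itself was lower. Among markers of other cells, Lyz2 (4.50 and 4.70 against 0.525 and 0.190 FPKM), Hba-a2 (13.4 and 18.8 against 2.10 and 2.12), Pecam1 (4.81 and 3.89 against 1.17 and 0.906) and Tek (0.834 and 0.983 against 0.393 and 0.443) were also called higher in SCNT 2-cell embryos, and the part of such cells in these results was not tested.

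Set against the donor cells, SCNT 2-cell embryos were lower in 8 of the 9 genes, with 73.1% of all genes called (34.2% higher and 39% lower in donor cells), and Cyp19a1 did not differ detectably (0.388 and 0.275 against 0.334 and 0.0779 FPKM). This comparison shares its donor libraries with that of the IVF 1-cell embryos. Donor cells exceeded SCNT 2-cell embryos by a log2 difference of 9.78 ± 0.38 for Akr1c18, 9.65 ± 0.32 for Cyp11a1, 9.70 ± 0.25 for Hsd3b1 and 7.53 ± 0.24 for Fdx1. Relative to the mean donor level, SCNT 2-cell embryos stood at 0.0848% for Akr1c18, 0.0645% for Cyp11a1, 0.0448% for Hsd3b1 and 0.404% for Fdx1. IVF 2-cell embryos, which had no donor nucleus, stood at 0.0963%, 0.101%, 0.101% and 0.967%. Subtracting the IVF level left -0.0116% for Akr1c18, -0.0365% for Cyp11a1 and -0.0561% for Hsd3b1. On unscaled FPKM their mean levels thus did not exceed those of IVF embryos. With equal FPKM sums Akr1c18 stood at 0.119% in SCNT and 0.105% in IVF 2-cell embryos. Cyp11a1 (0.091% against 0.111%) and Hsd3b1 (0.0631% against 0.111%) stayed lower in SCNT embryos. Without the second IVF 2-cell library the IVF shares were 0.0667% for Akr1c18, 0.0547% for Cyp11a1 and 0.0574% for Hsd3b1. Only Hsd3b1 then stood lower in SCNT embryos. In SCNT 2-cell embryos Scarb1 stood at 4.79%, beside 4.53% in IVF 1-cell embryos, and Star at 6.17%, above its 2.52% in SCNT 1-cell embryos. Across the 19 genes of at least 1000 FPKM in donor cells the median was 1.72%, with the 10th and 90th percentiles at 0.0807% and 15.5%. Akr1c18 over Cyp11a1 was 2.89 and 2.23 in these embryos, beside 1.63 and 2.41 in donor cells, and Cyp11a1 over Hsd3b1 was 1.82 and 1.91, beside 1.35 and 1.22.

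SCNT 2-cell embryos with Kdm4d or its mutant held less Akr1c18 than SCNT 2-cell embryos without overexpression, called plain here, with all of these levels low. Akr1c18 stood at 0.784 and 0 FPKM with Kdm4d and 1.15 and 0 with mutant Kdm4d, against 3.03 and 2.79 without. In each of the treated groups the first library held it and the second was listed at 0. The log2 difference from plain SCNT embryos was -1.55 ± 0.38 with Kdm4d (adjusted p = 0.0067, limma) and -1.42 ± 0.38 with the mutant (adjusted p = 0.025). With Kdm4d, 1 of the 9 genes was higher and 2 were lower than in plain SCNT embryos, and 39.5% of all genes were called (21% higher and 18.5% lower). With the mutant, 2 were higher and 1 was lower, and 17.7% of all genes were called (11.3% higher and 6.41% lower). These comparisons share the plain SCNT libraries. The call with Kdm4d was lost without its second library (adjusted p = 0.067). That with the mutant was lost without its second library or either plain SCNT library (up to 0.13), and with a spread for each group (0.15).

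Cyp11a1 stood at 0.599 and 0.479 FPKM with Kdm4d and 0.659 and 0.0236 with the mutant, below the 1.05 and 1.25 of plain SCNT embryos. Hsd3b1 stood at 0.176 and 0 with Kdm4d and was listed at 0 in both mutant libraries, below 0.576 and 0.654. Neither gene was called in either comparison. The highest of these values correspond to roughly 32 reads for Cyp11a1 and 8.3 for Hsd3b1. Spp1 stood at 10.2 and 4.35 FPKM with Kdm4d and 36.8 and 15.7 with the mutant, beside 13.2 and 12.7 in plain SCNT embryos. It thus lay below plain SCNT embryos with Kdm4d, as Akr1c18 did, and above them with the mutant, where Akr1c18 lay below. Spp1 was called in neither comparison.

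Star, of cholesterol supply, was lower with Kdm4d, and Fdx1 was higher in both treated groups. Star stood at 0.314 and 0.105 FPKM with Kdm4d, below 1.37 and 1.42 in plain SCNT embryos (-0.99 ± 0.19, adjusted p = 0.0019, limma). With the mutant it stood at 0.565 and 1.15, and Kdm4d lay below the mutant by -0.61 ± 0.19 (adjusted p = 0.025), a call lost without the second library of either group (up to 0.14). Fdx1 stood higher, at 5.99 and 5.38 with Kdm4d (0.92 ± 0.24, adjusted p = 0.010) and 4.59 and 6.18 with the mutant (0.85 ± 0.24, adjusted p = 0.034), than the 3.64 and 1.67 of plain SCNT embryos. With equal FPKM sums neither Fdx1 call held (adjusted p = 0.26 and 0.19). Without the second plain SCNT library, where Fdx1 was lowest, they were lost as well (0.11 and 0.23), and the mutant call was lost without its second library.

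Scarb1 stood at 2.20 and 2.41 FPKM with Kdm4d and 3.24 and 6.78 with the mutant, a difference between them of -0.80 ± 0.25 (adjusted p = 0.023, limma). Kdm4d and its mutant differed in 3 of the 9 genes, Star, Scarb1 and Akr1b7, all lower with Kdm4d, against 43.9% of all genes (21.4% higher and 22.5% lower). The Scarb1 call was lost without either Kdm4d library or the second mutant library (up to 0.17). Fitting only these 2 groups ended all 3 calls (adjusted p 0.089 to 0.26), but that fit called 0 of all 13451 genes. With a spread for each group only Akr1b7 kept its call.

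Akr1b7, with its uncertain values, was highest in the mutant group. It stood at 3.05 and 4.04 FPKM there, against 0.866 and 0.485 in plain SCNT (1.44 ± 0.17, adjusted p = 0.0011, limma), 0.831 and 1.10 with Kdm4d (Kdm4d lower by -1.20 ± 0.17, adjusted p = 0.00028) and 0.339 and 0.399 in IVF 2-cell embryos (1.72 ± 0.17, adjusted p = 1.3e-05). Both mutant libraries lay above every other library of the study, the donor cells at 2.00 and 2.58 included. These calls held without any single library, while the fit of only the groups compared ended those against plain SCNT (0.17) and Kdm4d (0.089). Both of these fits called 0 of all 13451 genes.

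**Figure D5:**
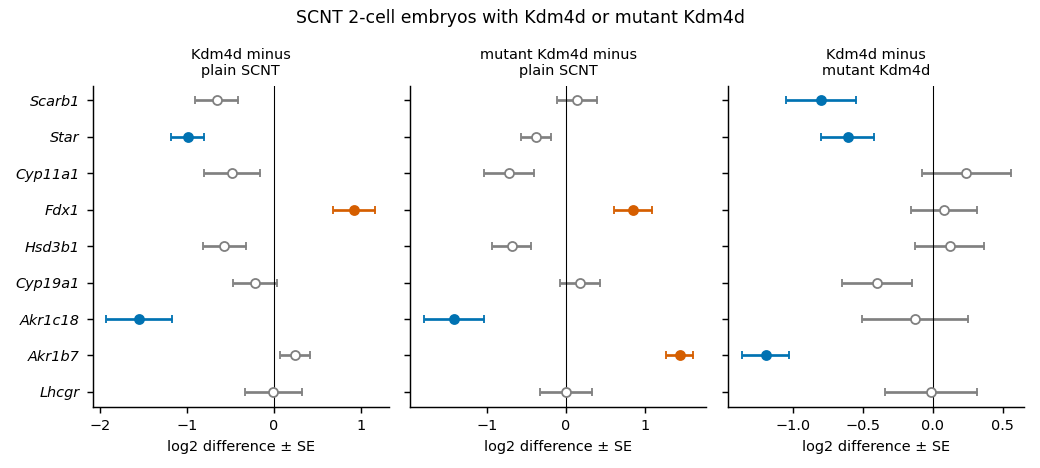
Differences on the log2(FPKM + 1) scale for the 9 genes among SCNT 2-cell embryos with Kdm4d, with mutant Kdm4d or with neither (plain), with 2 libraries per group. The SE comes from the limma fit of all 14 libraries, with 1 spread per gene shared by all groups. Filled points had an adjusted p under 0.05, orange higher and blue lower. Akr1b7 was higher by 1.44 with the mutant, and Akr1c18 was lower in both treated groups.

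Set against IVF 2-cell embryos, Kdm4d embryos were lower in 2 of the 9 genes, Hsd3b1 (-1.09 ± 0.25, adjusted p = 0.012, limma) and Akr1c18 (-1.65 ± 0.38, adjusted p = 0.010), and 20.3% of all genes were called (16.6% higher and 3.7% lower). Both calls were lost without the second IVF 2-cell library, where these genes were highest, or without the second Kdm4d library, where they were at 0 (adjusted p up to 0.13). With mutant Kdm4d, Hsd3b1 (-1.21 ± 0.25, adjusted p = 0.0019), Akr1c18 (-1.51 ± 0.38, adjusted p = 0.0051) and Cyp11a1 (-1.04 ± 0.32, adjusted p = 0.016) were lower and Scarb1 and Akr1b7 higher, and 54.5% of all genes were called (36.4% higher and 18.1% lower). Scarb1 stood at 3.24 and 6.78 FPKM against 0.960 and 1.18 (1.47 ± 0.25, adjusted p = 0.00047). The Hsd3b1 call with the mutant held without any single library, whereas that of Akr1c18 was lost without the second IVF 2-cell library (0.058) and that of Cyp11a1 without it or the second mutant library (up to 0.17).

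Across all 7 groups the 9 genes fell into different orders. Donor cells stood first for Star, Cyp11a1, Hsd3b1, Akr1c18, Lhcgr, Fdx1 and Scarb1, apart from the next group in each case. Below the donor cells, Akr1c18 ran from SCNT 1-cell (31.3 mean FPKM) to IVF 2-cell (3.31) and SCNT 2-cell embryos (2.91), of which the last pair overlapped, and then to the 2 treated groups and IVF 1-cell embryos, whose neighbours overlapped. Cyp11a1 and Hsd3b1 had the same 4 groups on top, but SCNT 1-cell and IVF 2-cell embryos overlapped. Lhcgr stayed at or below 0.227 FPKM in every embryo library, and no neighbouring embryo groups stood apart. Cyp19a1 ran from IVF 1-cell (8.11) to SCNT 1-cell embryos (4.26), apart from each other, with all other groups at or below 0.422.

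The genes nearest in pattern were found by the Euclidean distance between the 7 group means of log2(FPKM + 1), over all genes tested outside the 9. For Cyp11a1 the nearest was Anxa1 (distance 2.02; 597 mean FPKM in donor cells, 0.0463 in IVF and 2.16 in SCNT embryos at the 1-cell stage), which was also nearest to Hsd3b1 (1.97). Akr1c18 had no close neighbour, with Mgst1 nearest at 3.75. Cyp19a1 was nearest to Pdzrn4 (0.62; 6.81 mean FPKM in IVF and 5.64 in SCNT embryos at the 1-cell stage, 0.00415 in donor cells), and Fdx1 to Cited2 (1.94). Star was nearest to Glipr1 (0.46) and Scarb1 to Anxa4 (0.70).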

How the data were processed

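Libraries were made from directly lysed cells or embryos with the SMARTer Ultra Low Input kit, Covaris fragmentation and NEBNext Ultra, and read as single ends on an Illumina HiSeq, per the labels' protocols. Per the submitters' processing notes, Novoalign (version not given) and Cufflinks 2.0.2 were used with genome build mm9. The authors deposited 1 table of FPKM for 23697 rows and all 14 libraries; the sources used here name neither its filters nor how multiply mapped reads were handled. Starts in the table count from 0, so 1 was added.

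From it, 798 rows of short RNAs were left out and rows that shared a symbol were summed, which left 22490 symbols. Genes that reached 1 FPKM in 2 or more libraries were tested as log2(FPKM + 1) with limma 3.58.1 in R 4.3.3, with all 7 group means in 1 model, a trend of the spread with level and 7 residual degrees of freedom. P-values are two-sided, adjusted by Benjamini and Hochberg over all 13451 genes within each comparison, and called under 0.05. The fit was tested on simulated data. All groups share 1 spread per gene. Percentages of the donor level and ratios are descriptions. Depth was estimated from the smallest FPKM steps of long genes with 1 GENCODE transcript, and between 82.1% and 88.4% of low values then lay within 0.2 of a whole read, too few for a count test, so read numbers are approximate.

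Members and lists were chosen with earlier results of these data known. The genes named from the lists were called genes with large changes, a group mean of at least 5 FPKM and no overlap between libraries; Nr5a1, Cyp17a1 and, at the 2-cell stage, Hsd17b1, Fdxr and the markers of other cells were chosen after their values were seen. The alternatives were other pseudocounts, filters and scalings, a spread for each group, fits of only the groups compared, the replicate block and leaving out each library. Shared stretches were counted between GENCODE transcripts, and promoters came from RefSeq; both use GRCm38, from which no coordinate was set beside mm9.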

Additional observations from a re-analysis of the deposited data

Results flagged for a closer look

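For 5 of the 9 genes the change from the 1-cell to the 2-cell stage differed between SCNT and IVF embryos by the interaction term of the limma fit, which is what singled them out. The SCNT change minus the IVF change, on the log2(FPKM + 1) scale, was -5.00 for Akr1c18, -2.19 for Cyp11a1 and -1.83 for Hsd3b1, which fell in SCNT and rose in IVF embryos. It was -1.01 for Fdx1, which fell in both, and 1.36 for Scarb1, which fell in IVF embryos and was not called between the SCNT stages. Oocyte strain differed between SCNT and IVF embryos at both stages and cannot be told apart from their origin.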

How the results depend on the processing

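Of 740 alternative values for calls of single genes, 644 kept direction and side of the threshold, 88 lost the call, 5 gained it and 3 reversed. The reversals were for differences not called between SCNT and IVF 2-cell embryos: Akr1c18 at 0.19 with equal FPKM sums and -0.45 to 0.25 over the libraries left out, and Cyp11a1 at -0.76 to 0.12 over these, both highest without the second IVF 2-cell library. The cause was not tested for any change given here, except that fits of only the groups compared have fewer samples.

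Counts of the 9 genes called moved as follows. In SCNT against IVF 1-cell embryos, with 3 higher and 0 lower, a spread for each group gave 5 higher and 1 lower, only the groups compared 1 lower, and each library left out 1 higher. From SCNT 1-cell to 2-cell, with 1 higher and 5 lower, equal sums gave 3 and 3, quantile normalization 0 higher, a spread for each group and only the groups compared 2 higher, and left-out libraries 0 to 1 higher and 3 to 4 lower. For the interaction, with 1 higher, a spread for each group and only the groups compared gave 2, and left-out libraries 0 to 1. In SCNT against IVF 2-cell embryos, with 2 higher and 1 lower, a pseudocount of 0.1 gave 1 higher, quantile normalization 1 higher and 3 lower, and left-out libraries 1 to 2 higher and 1 to 2 lower. For Kdm4d against plain SCNT, with 1 higher and 2 lower, equal sums gave 0 and 5, quantile normalization 2 higher, only the groups compared 0 higher, a pseudocount of 0.1 4 lower, and left-out libraries 0 to 1 higher and 1 to 2 lower. For the mutant against plain SCNT, with 2 higher and 1 lower, no filter gave 1 and 0, a 5 FPKM minimum 1 higher, equal sums 1 and 4, a spread for each group 1 and 0, only the groups compared 0 and 0, and left-out libraries 1 to 2 higher and 0 to 1 lower. Kdm4d against mutant, with 3 lower, gave 1 with a spread for each group, 0 with only the groups compared and 1 to 3 with libraries left out. Kdm4d against IVF, with 0 higher and 2 lower, gave 2 higher with a pseudocount of 0.1, 1 lower with a spread for each group, 0 lower with only the groups compared and 0 to 3 lower with libraries left out. The mutant against IVF, with 2 higher and 3 lower, gave 1 higher with a 5 FPKM minimum, 1 lower with only the groups compared and 1 to 3 lower with libraries left out. Donor comparisons kept 7 to 8 higher, since Lhcgr failed the filter without either donor library.

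The median share of the donor level over the 9 genes was 2.52% for SCNT 1-cell, 0.967% for IVF 2-cell, 0.987% for SCNT 2-cell, 0.865% for Kdm4d and 0.969% for mutant embryos. Subtracting the level of IVF embryos of the same stage gave 0.149, 0.0598, -0.0945 and 0.0415 for SCNT 1-cell, SCNT 2-cell, Kdm4d and mutant embryos, and equal sums gave 1.04 for IVF 2-cell embryos. Libraries left out gave 2.45 to 3.98, 0.858 to 1.11, 0.254 to 2.30, 0.465 to 1.39 and 0.699 to 2.25 for SCNT 1-cell, IVF 2-cell, SCNT 2-cell, Kdm4d and mutant embryos, and 0.00975 to 1.64 around 0.827 for IVF 1-cell embryos. After that subtraction the shares of Akr1c18, Cyp11a1 and Hsd3b1 were -0.0116, -0.0365 and -0.0561 in SCNT 2-cell and -0.0849, -0.0707 and -0.0945 in Kdm4d embryos, and those of Akr1c18 and Cyp11a1 -0.0796 and -0.0818 in mutant embryos.

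Over all genes, equal FPKM sums changed the split of higher to lower calls from 4773 and 4242 to 6969 and 2314 from SCNT 1-cell to 2-cell, from 180 and 131 to 106 and 44 in SCNT against IVF 1-cell, from 4086 and 5002 to 4809 and 3620 from IVF 1-cell to 2-cell, from 2221 and 1702 to 3551 and 1195 for the interaction, from 4074 and 2228 to 6328 and 1506 in SCNT against IVF 2-cell, from 2826 and 2486 to 1155 and 6052 for Kdm4d against plain SCNT, from 1515 and 862 to 650 and 3337 for the mutant, from 2875 and 3024 to 2115 and 3959 between these, from 2235 and 498 to 932 and 976 for Kdm4d against IVF and from 4597 and 5242 to 3648 and 6542 for donor against SCNT 2-cell embryos. The median of all genes moved from 0.06 to 0.57 between the SCNT stages and from -0.02 to -0.47 for Kdm4d against plain SCNT. Fits of only the groups compared called 0 of 13451 genes for the mutant against plain SCNT and 0 for Kdm4d against the mutant. For Kdm4d against IVF they called 104 higher and 36 lower.

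Deviations of same-numbered libraries correlated at -0.155 to 0.191 over 21 pairs of groups, the highest between the Kdm4d and mutant Kdm4d groups. The correlations were weak, but such a check cannot exclude that same-numbered libraries were handled together. Fitted as a replicate block, the library numbers ended the calls of Cyp11a1 between the SCNT stages (-0.77, adjusted p = 0.06, limma) and of Fdx1 in the interaction (-1.01, adjusted p = 0.059), and no other call of the 9 genes. Over all genes in SCNT against IVF 1-cell embryos the block gave 133 higher and 87 lower. On data simulated for SCNT against IVF 1-cell embryos over 13451 genes, the fit called 100 of 100 genes changed by 3 on the log2 scale. It called 58 of 100 changed by 1, and 11 unchanged genes. Each simulated gene had its mean level over all 7 groups and 1 spread for all of them. The simulation therefore does not show how the fit treats genes near 0 in 1-cell embryos or unequal spreads. Several levels in 2-cell embryos lay below 1 FPKM, where the scale understates differences.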
